A study of Xenopus laevis x Xenopus muelleri with 6 samples.

Results

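The genes described here encode the proteins of the cytoplasmic ribosome, measured on 6 microarrays of hybrid frog testis. They were chosen by symbol: a probe set was taken where the platform table gave it exactly 1 gene symbol and that symbol, without its copy suffix, began with rpl or rps and a digit or was rpsa, rplp0, rplp1 or rplp2. Kinases of the rps6k family were left out (7 probe sets). This gave 56 probe sets of 45 gene symbols, out of 11485 probe sets and 5790 symbols in the table. Of 80 standard proteins of the ribosome 41 were covered, 13 of 33 in the small subunit and 28 of 47 in the large one. A further 3 names lie outside that standard list: rpl3l and rpl22l1, relatives of rpl3 and rpl22, and rps28p9, a symbol of the rps28 kind.

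All animals were hybrids of a Xenopus laevis mother, of Cape stock, and a X. muelleri father from Swaziland, raised from the egg and sexually mature when the testes were taken. The sex-reversed testes gave 3 arrays and the normal testes 3, with biological replicate numbers 1 to 3 in each group. How sex was reversed, and whether a sample pools animals, is not given in the sources used here, so p-values measure only the spread between these samples. X. laevis is allotetraploid and keeps many genes as a long (L) and a short (S) copy, named for the chromosomes that carry them. Values are log2 expression values, so that a difference of 1 is a doubling.

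A ribosome joins a small subunit, which reads the messenger RNA, to a large subunit, which forms the peptide bonds. Each holds ribosomal RNA and many small proteins, most of them in a single copy, whose messenger RNAs are among the most abundant of a growing cell. In vertebrates these messengers begin with a terminal oligopyrimidine (TOP) tract, through which their translation is raised or lowered together, and Xenopus embryos were an early model for that control. In a testis, the cells that divide and grow before and during meiosis translate actively, whereas maturing spermatids lose much of their cytoplasm.

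The array medians lay between 5.25 and 5.31, and no scan or hybridisation batch is given in the labels or the table. Of 6 germ cell markers 3 were measured, and 2 of them were high in both groups: ddx4.L, the germ line helicase gene vasa, averaged 12.49 ± 0.11 in sex-reversed and 12.57 ± 0.20 in normal testis (SD, n = 3 each), and dazl.L, a germ line RNA-binding protein gene, averaged 11.93 ± 0.01 in sex-reversed and 11.92 ± 0.20 in normal testis. The third, tdrkh.L, lay near the median probe set, at 5.77 ± 0.92 in sex-reversed and 4.99 ± 1.60 in normal testis. Of the blood markers 3 of 7 were measured, all with low group means between 2.89 and 4.59. The 4 smooth muscle markers (5 gene copies) had a summed linear signal of 5270 to 7723 on sex-reversed arrays and 4034 to 5411 on normal arrays. Their part in the ribosomal protein values was not tested. In whole testis RNA, fewer cells of a type and less RNA per cell cannot be told apart.

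Ribosomal protein genes were among the brightest probe sets of the testis in both groups. The median member lay at the 98.6th to 99.1th percentile of its array, and 46 of 56 members lay above the median probe set in mean level. On the sex-reversed arrays 25, 27 and 27 of the 100 brightest probe sets were members, against 24, 28 and 28 on the normal arrays. Of the top 1% of the table by mean level (115 probe sets) 28 were members (24.3%), whereas members make up 0.488% of the table. These are descriptions, because a level joins the abundance of the transcript to the response of its probes. How well transcripts of the X. muelleri alleles bind probes made for X. laevis was not tested.

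The large subunit gave most of the highest levels. The highest was nevertheless a small subunit gene, rps27.S, which encodes a zinc-finger protein: its brighter probe set read 13.86, 14.25 and 13.98 in sex-reversed testes and 13.59, 14.20 and 13.91 in normal testes, and was the brightest of the whole array on 3 of the 6. Next came rpl10.S, whose protein joins the large subunit late and sits near the site of peptide bond formation. It read 13.96, 13.98 and 13.83 in sex-reversed testes and 13.56, 13.91 and 14.01 in normal testes. The groups overlapped for both genes, and normal replicate 1 was the lowest array of each. The names of both rps27.S probe sets mark them as ones that may bind other transcripts too. Such names were borne by 4 of the 56 members. A further 5 are named as shared between transcripts: the brightest of rpl13a.L, rpl34.L, rps28p9.S and rps29.S, and the only one of rpl23a.S.

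Both probe sets of rpl13a.L, the gene of a protein that in mammals also leaves the ribosome to silence inflammatory messengers, were among the 5 brightest members. The brighter one read 13.93, 13.93 and 13.77 in sex-reversed testes and 13.62, 13.86 and 13.59 in normal testes. The brightest probe set of rpl35a.S completed the 5, with 13.59, 13.29 and 13.75 in sex-reversed testes and 13.65, 13.69 and 13.69 in normal testes. Below them lay rpl23.S (mean of 6 arrays 13.44), rpl11.S (13.42), whose protein docks beside the 5S ribosomal RNA, rpl19.L (13.27) and rpl21.L (13.27). Of the small subunit, rps19.S (12.55) and rps14.S (12.18), the counterparts of human genes lost or mutated in inherited or acquired anaemias, also stood in the top 1%. The median level was 11.65 over 34 large subunit probe sets (30 symbols) and 10.35 over 22 small subunit probe sets (15 symbols). These medians count every probe set, so dim further ones of bright genes enter them. Examples are those of rps28p9.S (3.12) and rps29.S (3.39) in the small subunit and of rpl34.L (2.93) in the large one.

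**Figure D1:**
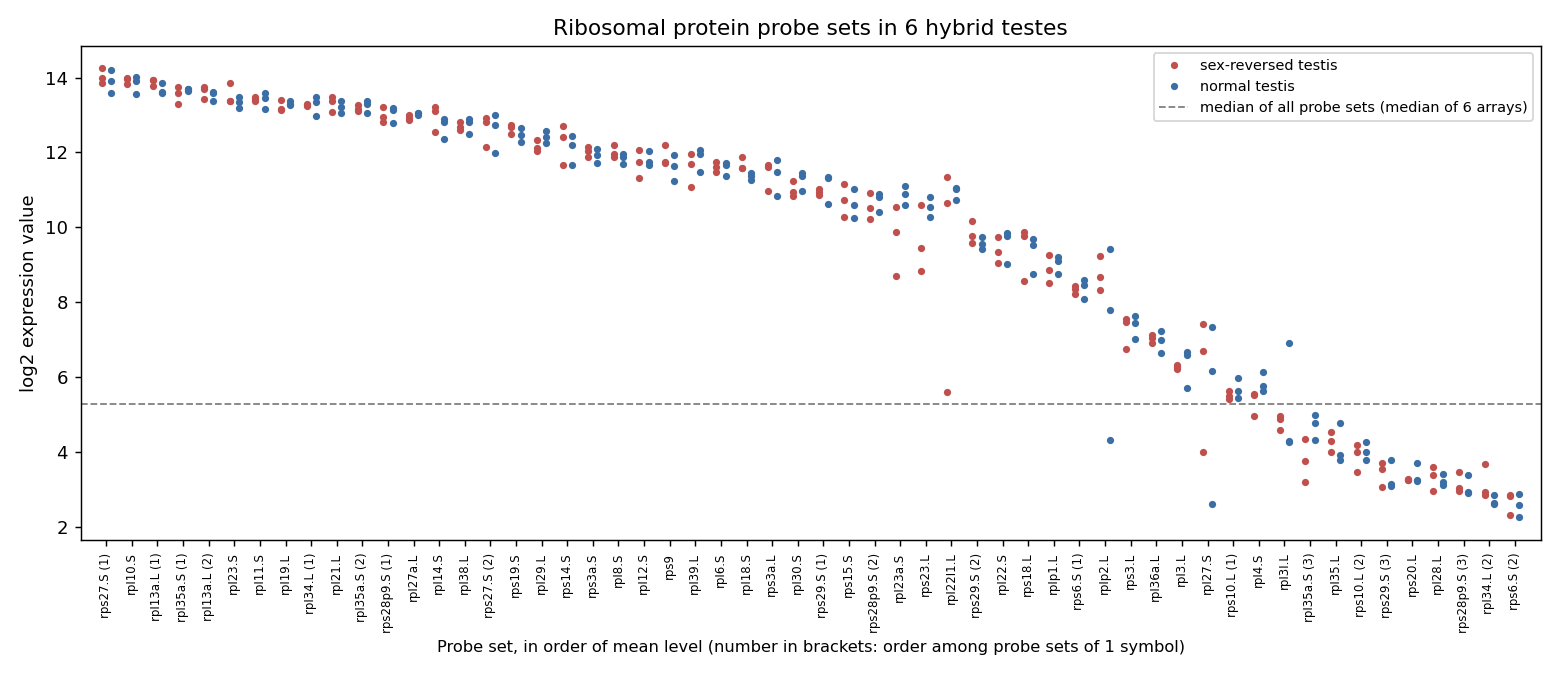
Log2 value of each of the 56 ribosomal protein probe sets (x axis, from the highest to the lowest mean) on the 6 arrays, with sex-reversed testes left and normal testes right at each position, and the median of all probe sets as a dashed line. Levels run from a mean of 13.96 for rps27.S to 2.62 for the second probe set of rps6.S, and 46 of 56 probe sets lie above the median probe set.

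Not every probe set of a ribosomal protein gene was bright, and several dim ones shared their gene with a bright one. The 5 lowest members were the second probe set of rps6.S (mean 2.62), the second of rpl34.L (2.93), the third of rps28p9.S (3.12), and the only ones of rpl28.L (3.28) and rps20.L (3.33). The lowest value on each array was 1.93 to 2.09, so these lay near the floor of the data. Signal over background was not measured. Of the 10 members at or below the median level 8 had the letter A in the last part of their Affymetrix name, which marks the orientation of the target relative to its source sequence. The 11 members with that letter had a median level of 4.21 and the 45 with the letter S one of 11.71. Over the whole table the medians were 4.94 (6493 probe sets) and 5.83 (4992 probe sets). rpl10.S, with a mean of 13.87, carried the letter A as well.

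Of the 45 symbols 8 had more than 1 probe set, and in 5 of these the probe sets lay more than 2 log2 units apart. rpl34.L, of the large subunit, averaged 13.27 on its first probe set and 2.93 on its second. rps28p9.S averaged 13.01, 10.63 and 3.12 on its 3 probe sets. For rps29.S, which encodes a small zinc-binding protein of the small subunit, the means were 11.03, 9.70 and 3.39. rps6.S, whose protein is phosphorylated by the S6 kinases, averaged 8.35 and 2.62. By contrast both probe sets of rpl13a.L lay at 13.78 and 13.58. The level of a gene on this array therefore depends on the probe set that is read, and with the brightest probe set per symbol 41 of 45 symbols lay above the median and 31 in the top 5%.

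**Figure D2:**
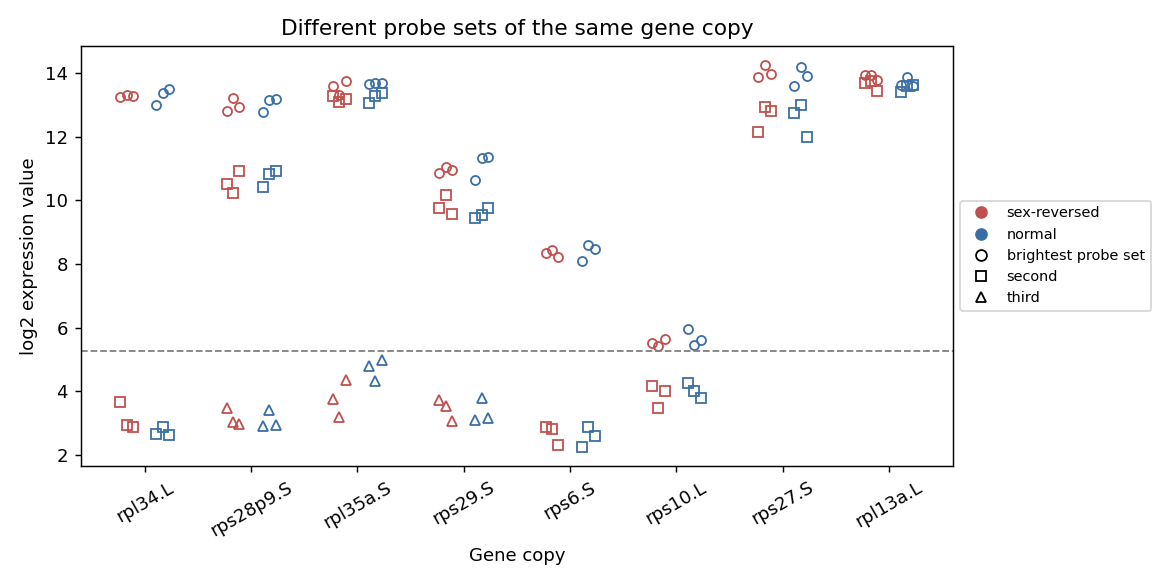
Log2 values of the 8 gene copies with more than 1 ribosomal protein probe set, with sex-reversed arrays left and normal arrays right of each position, marker shapes for the order of the probe sets by mean level, and a dashed line at the median of all probe sets. For rpl34.L the first probe set averages 13.27 and the second 2.93, while those of rpl13a.L average 13.78 and 13.58.

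Copies were split evenly by name, with 22 L symbols (25 probe sets), 22 S symbols (30 probe sets) and rps9 without a suffix. Only rps3a, a small subunit gene, had both copies among the members. rps3a.L read 10.98, 11.61 and 11.65 in sex-reversed testes and 11.48, 11.80 and 10.84 in normal testes. rps3a.S read 12.04, 12.15 and 11.87 in sex-reversed testes and 11.72, 11.94 and 12.10 in normal testes. The L copy was thus the lower on all 6 arrays, by 0.58 on average, but by amounts between 0.14 and 1.25: L minus S was -1.06, -0.55 and -0.21 in sex-reversed testes and -0.24, -0.14 and -1.25 in normal testes. The gap was widest in sex-reversed replicate 1 and normal replicate 3, where rps3a.L was low and rps3a.S was not. The name of the rps3a.S probe set marks it as one that may bind other transcripts too.

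Among all 622 genes with both copies measured, 217 had L above S on every array, 226 had L below S on every array, and the median absolute gap was 1.43. The gap of rps3a was larger than that of 24.0% of these genes. Since the copies are read by different probe sets, the gap itself is a description. A constant probe response cancels in its change between groups, which for rps3a was -0.06 (95% interval -1.03 to 0.91, limma adjusted p = 0.992). No gene changed its gap past an adjusted p of 0.05 (limma, 0 of 622, 0%), and 22 of 622 (3.54%) had an unadjusted p under 0.05, rps3a not among them. Over the members by name, the median level was 9.37 for L and 11.56 for S probe sets, which are different genes and not a comparison of copies.

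Sex-reversed and normal testes did not differ past the threshold in any ribosomal protein gene. In limma, 0 of 56 members had an adjusted p under 0.05, as did 0 of all 11485 probe sets (0%). At an unadjusted p under 0.05 there were 2 members (3.57%), both lower in sex-reversed testis, beside 508 of all probe sets (4.42%). The same test without moderation gave 1 member and 511 probe sets at that level, and 0 after adjustment. The means of 30 members were higher and of 26 lower in sex-reversed testis (53.6% higher, against 51.3% of all probe sets), with a median log2 difference of 0.03 beside 0.01 for all. That median turned negative without normal replicate 1 (-0.07), sex-reversed replicate 2 or sex-reversed replicate 3 (both -0.02). The median was 0.07 in the small subunit (13 higher, 9 lower) and -0.02 in the large subunit (17 higher, 17 lower).

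Differences of most members were small. The absolute difference was under 0.5 for 50 of 56 members, and its median was 0.13 against 0.21 over all probe sets. For 46 members (82.1%) the 95% interval lay within 2-fold in either direction, against 62.5% of all probe sets. Members were brighter than most probe sets, and neither comparison was made at equal level. The median SD within groups was 0.213 in the other probe sets of the top 1%, beside 0.340 over all probe sets. Among the brightest genes, rps27.S differed by 0.13 (95% interval -0.43 to 0.69) and rpl10.S by 0.09 (-0.41 to 0.59). The probe sets of rpl13a.L differed by 0.19 (-0.28 to 0.65) and 0.08 (-0.41 to 0.57). For the brightest probe set of rpl35a.S it was -0.13 (-0.62 to 0.36), for rpl23.S 0.19 (-0.34 to 0.73) and for rpl11.S 0.03 (-0.46 to 0.52). Values near the top of the scale, where the highest of each array was 13.86 to 14.42, may understate a difference, and saturation was not measured.

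In 5 members the groups did not overlap. The 2 higher ones (3.57%, beside 5.37% of all probe sets) were rpl18.S and the dim second probe set of rpl34.L. rpl18.S, a large subunit gene, read 11.59, 11.89 and 11.59 in sex-reversed testes and 11.26, 11.37 and 11.44 in normal testes, a difference of 0.33 (95% interval -0.14 to 0.81, limma adjusted p = 0.997). The second probe set of rpl34.L read 3.67, 2.94 and 2.87 in sex-reversed testes and 2.65, 2.86 and 2.62 in normal testes. Its difference was 0.45, and 0.19 without sex-reversed replicate 1, while the bright first probe set of this gene differed by 0.001.

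The 3 members with all sex-reversed arrays below all normal ones (5.36%, beside 4.26% of all probe sets) were rpl23a.S, rpl4.S and rpl27a.L. rpl4.S, whose protein lines the tunnel through which the new peptide leaves, read 4.96, 5.52 and 5.56 in sex-reversed testes and 5.76, 5.62 and 6.13 in normal testes (difference -0.49, limma adjusted p = 0.997, and -0.29 without sex-reversed replicate 1). rpl27a.L had the smallest spread within groups of all members (SD 0.055). It read 12.92, 13.00 and 12.86 in sex-reversed testes and 13.01, 13.06 and 13.06 in normal testes, a difference of -0.12. None of these shares stood far from that of the whole table.

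**Figure D3:**
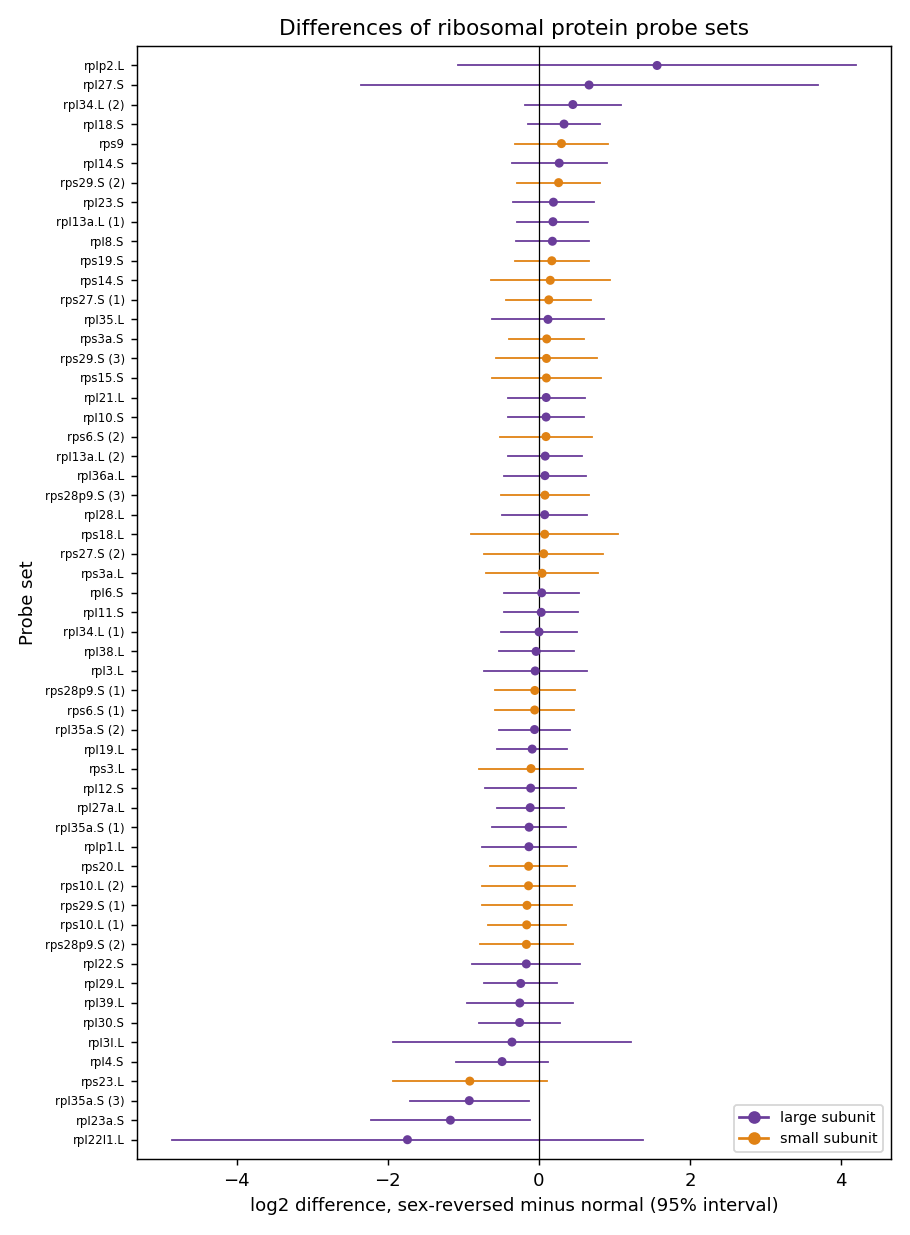
Log2 difference of each ribosomal protein probe set, sex-reversed minus normal, with the 95% interval of the limma fit, coloured by subunit and ordered by size (number in brackets: order among probe sets of 1 symbol). For 46 of 56 probe sets the interval lies within 2-fold, and rplp2.L, rpl27.S and rpl22l1.L have the widest ones.

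rpl23a.S and rps23.L had the lowest values in the same sex-reversed samples. The protein of rpl23a lies at the mouth of the exit tunnel, where the signal recognition particle docks, and that of rps23 lies at the decoding centre of the small subunit. rpl23a.S read 9.87, 8.69 and 10.54 in sex-reversed testes and 10.90, 11.11 and 10.60 in normal testes. Its only probe set is named as shared between transcripts. rps23.L read 9.44, 8.83 and 10.60 in sex-reversed testes and 10.55, 10.80 and 10.27 in normal testes. Sex-reversed replicates 1 and 2 were therefore the low ones, and sex-reversed replicate 3 lay at or near the normal values.

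The difference was -1.17 for rpl23a.S (95% interval -2.22 to -0.12, unadjusted p = 0.0331 and adjusted p = 0.997 in limma, n = 3 per group) and -0.67 without sex-reversed replicate 2. For rps23.L it was -0.92 (-1.94 to 0.11, limma adjusted p = 0.997), with -0.52 without sex-reversed replicate 2 and -1.40 without sex-reversed replicate 3. The third probe set of rpl35a.S had the same order of arrays within the sex-reversed group: 3.77, 3.20 and 4.35 in sex-reversed testes and 4.78, 4.32 and 4.99 in normal testes, a difference of -0.92 (unadjusted p = 0.0278 and adjusted p = 0.997 in limma). The bright probe sets of rpl35a.S differed by only -0.13 and -0.06. The brightest nevertheless had the same order within the sex-reversed group (13.59, 13.29 and 13.75). Deviations from the group means of rpl23a.S correlated over the 6 arrays at r = 0.95 with rps23.L and at 0.96 with the brightest probe set of rpl35a.S. These pairs were picked after their values were seen, and with 2 group means removed few independent values lie behind those numbers.

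A few members varied widely between samples of the same group. The SD within groups was above 1 in 4 members (7.14%, against 3.86% of all probe sets). rpl22l1.L, a relative of rpl22 that can take its place in the ribosome in mammals, read 10.65, 11.35 and 5.59 in sex-reversed testes and 11.02, 10.73 and 11.06 in normal testes. Its difference of -1.74 (95% interval -4.86 to 1.38) rested on sex-reversed replicate 3 and was 0.06 without it and -2.82 without sex-reversed replicate 2. cyp17a1.L, the androgen synthesis enzyme gene of the steroid-producing cells, was low on the same array: 11.14, 10.49 and 5.17 in sex-reversed testes and 9.96, 11.34 and 10.79 in normal testes. cyp17a1.L was the only measured marker of the 4 listed for those cells, and the match was not a planned comparison. Whether the 2 low values share a source was not tested.

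rplp2.L encodes an acidic protein of the stalk that recruits elongation factors. It read 8.66, 8.32 and 9.24 in sex-reversed testes and 7.80, 9.41 and 4.32 in normal testes, so that normal replicate 3 stood far below the other arrays. The difference was 1.56 (95% interval -1.07 to 4.20), 0.13 without that array and 2.68 without normal replicate 2. rplp1.L, which encodes the stalk partner, showed no such drop and read 8.52, 9.27 and 8.87 in sex-reversed testes and 8.75, 9.21 and 9.10 in normal testes.

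rpl27.S, of the large subunit, had values scattered in both groups: 3.99, 7.42 and 6.70 in sex-reversed testes and 6.17, 2.62 and 7.33 in normal testes. Its lowest array was at the 3.23th percentile of all probe sets and its highest at the 79.5th. The difference of 0.66 lay between -0.71 and 1.68 with single arrays left out, negative without normal replicate 2 or sex-reversed replicate 2 (-0.03) and positive without any of the other 4. rpl3l.L, a relative of rpl3 that mammals use in striated muscle, read 4.60, 4.88 and 4.95 in sex-reversed testes and 4.30, 4.27 and 6.92 in normal testes. Without normal replicate 3 its difference of -0.36 became 0.52, and it was -0.79 or -0.80 without normal replicate 1 or 2. rpl3.L itself, at 6.32, 6.28 and 6.22 in sex-reversed and 6.58, 5.72 and 6.67 in normal testes, was not raised in normal replicate 3 beyond its own spread.

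**Figure D4:**
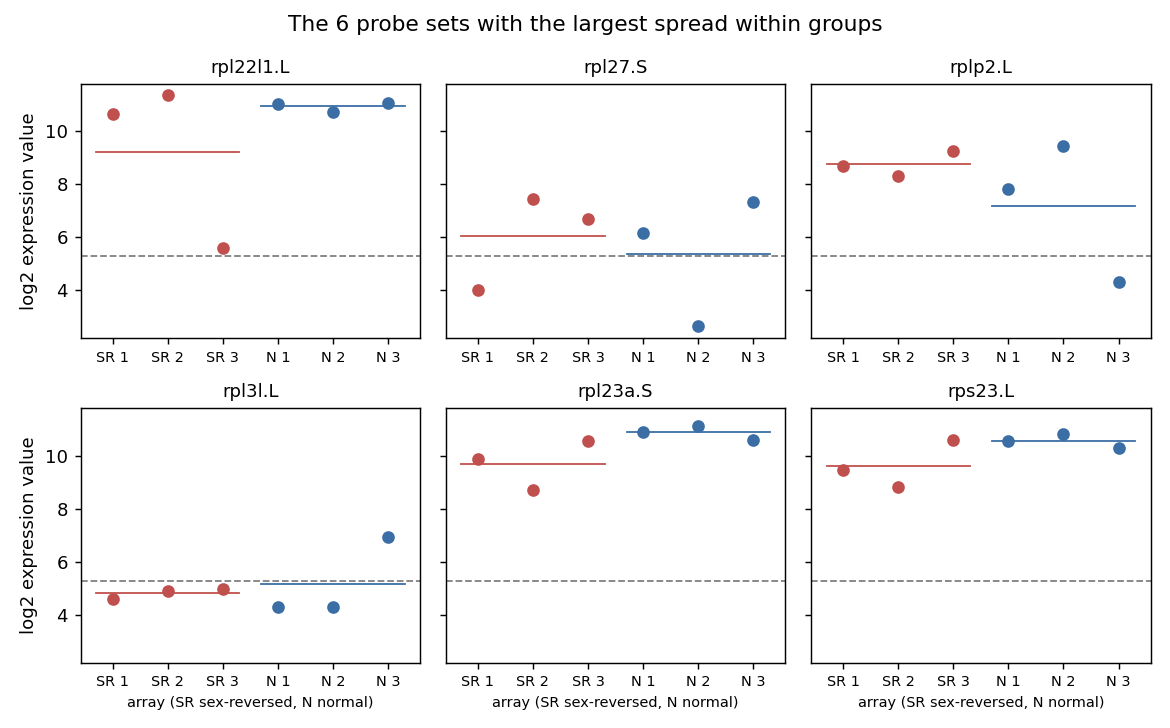
Log2 values of the 6 ribosomal protein probe sets with the largest SD within groups on each array, sex-reversed (SR) left and normal (N) right, with group means as lines and the median of all probe sets dashed. Single arrays stand apart for rpl22l1.L (5.59 in SR 3), rplp2.L (4.32 in N 3) and rpl3l.L (6.92 in N 3), while rpl23a.S and rps23.L are low in SR 1 and SR 2.

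Spread differed widely among the members. Beyond those plotted, rps18.L, a small subunit gene, had an SD within groups of 0.627, with 8.56, 9.89 and 9.77 in sex-reversed testes and 8.77, 9.53 and 9.70 in normal testes, replicate 1 being the lowest in each group. The dimmer probe set of rps27.S (0.475), rps14.S (0.470) and rps3a.L (0.435) also exceeded the median of all probe sets. That median was 0.340 over all probe sets, beside 0.284 over all members and 0.310 over the 2871 probe sets above the 75th percentile of level, and it was 0.228 in the 41 members above that level. In the top 1% it was 0.172 for the 28 members and 0.213 for the 87 other probe sets. The steadiest were rpl27a.L (0.055), rpl19.L (0.107), the brighter probe set of rpl13a.L (0.124), the second of rpl35a.S (0.132) and rpl18.S (0.138), all of the large subunit. The medians were 0.227 for the large and 0.309 for the small subunit. Their median levels differed too (11.65 and 10.35), and the subunits were not compared at equal level. Over all probe sets of the top 1% the median was 0.201, so the brightest part of the array was steadier than the array as a whole. The lower levels were not compared, and these medians are descriptions without a test.

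Bright ribosomal protein genes tended to be high or low on the same arrays. In normal replicate 1 the members read low, with 40 of 56 below their own mean over the 6 arrays, and in sex-reversed replicate 2 they read high, with 42 above it. On that second array 25 of the 28 members in the top 1% lay above their own mean, as did 59 of the 87 other probe sets of the top 1%. For the 28 members in the top 1%, the median deviation was -0.02, 0.16 and -0.04 in sex-reversed testes and -0.23, 0.07 and 0.09 in normal testes, so that the extremes lay in different groups. The 87 other probe sets of the top 1%, 6 of which carry several symbols with a ribosomal protein among them, had medians of -0.07, 0.08 and -0.01 in sex-reversed testes and -0.01, 0.02 and 0.06 in normal testes.

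Correlations of deviations from the group means over the 6 arrays had a median of 0.59 between bright members of different genes (374 pairs) and 0.03 between the other bright probe sets. Over all members the median was 0.22 (1525 pairs), and over all pairs of probe sets 0.0004. All arrays of a pair are shared and few independent values remain, so these are descriptions. The likest pairs included rps3a.S with rps19.S and rps3a.L with the dimmer probe set of rps27.S (both r = 0.99), whereas rps3a.L and the brighter probe set of rps27.S gave r = 0.43. The most opposite pair of all members was that of the brighter probe sets of rps6.S and rps10.L (r = -0.998), neither of them a bright member. Such pairs are the extremes of many. Correlations were positive in 80.7% of the pairs of bright members and in 60.8% of the pairs of all members. After a further quantile normalization the median was 0.18 in bright members and 0.08 in all members, while after median centring it was 0.60 in bright members and 0.23 in all members. Without normal replicate 1 it was 0.13 in all members. The median deviation of bright members in normal replicate 1 was -0.12 after the quantile normalization.

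**Figure D5:**
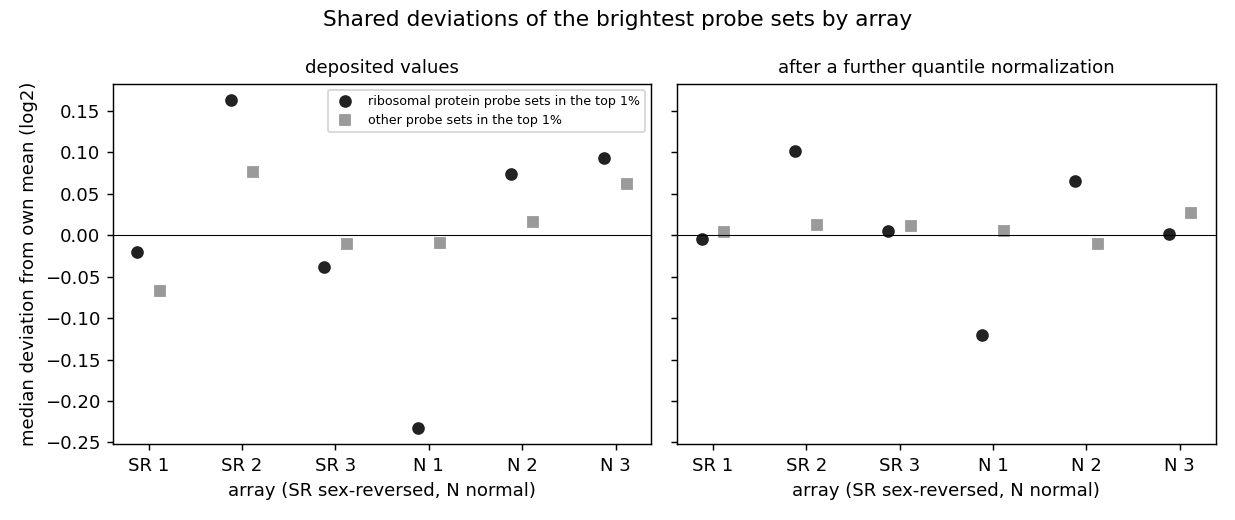
Median deviation (log2) of the 28 ribosomal protein probe sets (circles) and the 87 other probe sets (squares) in the top 1% of level from their own mean, by array, sex-reversed (SR) left and normal (N) right, for the deposited values and after a further quantile normalization. Ribosomal protein probe sets lie at -0.23 in N 1 and 0.16 in SR 2 in the deposited values, and at -0.12 and 0.10 after the normalization.

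Genes that build the ribosome had lower median levels than its proteins, and none passed the threshold in limma. For ribosomal RNA transcription, 7 of 16 listed genes were measured (8 gene copies, 3 with higher and 5 with lower means in sex-reversed testis, median 5.88 in level and -0.06 in difference). The largest differences were 0.39 for the nucleolar transcription factor gene ubtf.S, -0.26 for its other copy ubtf.L and 0.17 for the RNA polymerase I factor gene taf1b.L. With single arrays left out ubtf.S ranged from 0.03 (without normal replicate 3) to 0.72 (without normal replicate 1), and ubtf.L reached -0.42 without sex-reversed replicate 3. Factors of small nucleolar ribonucleoproteins and RNA modification gave 12 copies, 9 higher and 3 lower, with a median difference of 0.27 (all probe sets 0.01). In 2 of the 12 every sex-reversed array lay above every normal one, a larger share than the 5.37% of all probe sets, but of few copies. These were the U3 protein gene rrp9.S (6.39, 6.40 and 5.84 in sex-reversed and 5.74, 5.72 and 5.79 in normal testes) and nop10.S, whose protein belongs to pseudouridine-forming particles (9.52, 9.64 and 9.45 in sex-reversed and 9.17, 8.86 and 9.30 in normal testes). Their differences were 0.46 and 0.42 and that of the methyltransferase gene nop2.L was -0.46, and all had an adjusted p of 0.997 in limma. nop2.L ranged from -0.76 (without normal replicate 3) to -0.03 (without sex-reversed replicate 3).

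Small subunit processing factors, at 33 copies, were 18 higher and 15 lower with a median difference of 0.04. The largest difference was that of ngdn.L, a nucleolar processing factor, with 3.62, 4.23 and 4.08 in sex-reversed testes and 5.42, 5.48 and 4.53 in normal testes. It amounted to -1.17 (95% interval -1.92 to -0.42, limma adjusted p = 0.997). ngdn.L was the 1 copy of this list with all sex-reversed arrays lower (4.26% of all probe sets), and none had all of them higher. wdr36.L followed at -0.93 and pno1.L at 0.83, the last being 0.06 without normal replicate 2 and 1.31 without normal replicate 3. Large subunit factors, at 36 copies, were 20 higher and 16 lower (median 0.05), with pak1ip1.S at -1.13, sbds.S, whose protein frees new large subunits for use, at 0.90, and rsl1d1.L at 0.88. All 3 moved with single arrays: pak1ip1.S was -0.47 without sex-reversed replicate 2 and sbds.S 0.17 without normal replicate 3. rsl1d1.L moved by over 1.5 times with any array left out, from 0.10 (without sex-reversed replicate 2) to 2.08 (without normal replicate 1). In 3 of the 36 copies all sex-reversed arrays were higher (beside 5.37% of all probe sets), and in 0 lower (beside 4.26%). Of the exosome and 5S RNA genes, 9 copies were higher and 6 lower (median 0.09), with c1d.L at 0.62, dis3.L at -0.38 and ssb.S at 0.37. dis3.L was -0.71 without normal replicate 1 and -0.08 without normal replicate 2. In 1 of the 15 copies, ssb.S, all sex-reversed arrays were higher, beside 5.37% of all probe sets.

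Chaperones and importers of ribosomal proteins gave 8 higher and 9 lower copies (median -0.03). The largest difference was -1.31 for bccip.L, a large subunit assembly factor in human cells, which read 6.15, 4.73 and 4.27 in sex-reversed testes and 6.08, 7.04 and 5.95 in normal testes. hspa8.L lay at -0.30, ranging from -0.51 (without sex-reversed replicate 2) to -0.16 (without normal replicate 2), and pdcd2.S at 0.28, ranging from -0.40 (without normal replicate 2) to 0.78 (without normal replicate 1). The groups overlapped in all 17 copies. Genes listed under the control of TOP messengers were 11 higher and 9 lower (median 0.04). Among them rps6ka6.S, of the rps6k kinase family, lay at -0.82, tial1.S at 0.62 and the TOP-binding protein gene cnbp.L at 0.39. The part of rps6ka6.S in that control was not tested. cnbp.L ranged from 0.07 (without normal replicate 1) to 0.88 (without normal replicate 2), and rps6ka6.S from -1.32 (without sex-reversed replicate 3) to -0.49 (without sex-reversed replicate 2). tial1.S was -0.09 without normal replicate 3 and 1.03 without normal replicate 1. In 2 of the 20 copies all sex-reversed arrays were lower, beside 4.26% of all probe sets. The 22 genes measured for proteins of the mitochondrial ribosome, a separate machine, had a median level of 7.20. They were 8 higher and 14 lower (median -0.09). Of these, mrpl23.S lay at 1.43, mrpl28.L at -0.73 and mrps34.S at -0.64, and all 3 had an adjusted p of 0.997 in limma. mrpl23.S was -0.08 without normal replicate 2 and 2.25 without normal replicate 1, and mrpl28.L ranged from -1.11 (without normal replicate 2) to -0.42 (without sex-reversed replicate 1). In 2 of the 22, mrps34.S among them, all sex-reversed arrays were lower, again beside 4.26% of all probe sets. Of these 24 genes outside the ribosome's own proteins, 4 changed sign with 1 array left out.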

How the data were processed

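RNA of 6 samples of hybrid testis, grouped by the sample titles into 3 sex-reversed and 3 normal, was measured on Affymetrix arrays, 1 sample to an array, per the labels. The deposited table holds log2 values. RMA is named as the tool in the submitters' processing notes, without its options or chip definition, and the log2 scale was read from the values. Symbols came from the platform table (6798 probe sets with 1 symbol, 110 with several, 4577 with none). Of the 110 with several symbols, 7 had a ribosomal protein among them and were left out. No genome or sequence was used.

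All 11485 probe sets were tested with limma 3.58.1 in R 4.3.3 (lmFit, eBayes), as sex-reversed minus normal in a two-sided test. P-values were adjusted by Benjamini-Hochberg across the table, with a threshold of 0.05. L minus S was tested the same way over 622 genes, using the brightest probe set of each copy. The fit was tested on simulated data with shifts larger than any member difference here, so its power for smaller differences was not examined. Spread is the SD within groups, pooled. The precision is limited by the number of arrays, 3 per group.

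The members and lists were chosen with earlier results of these data known. Genes were named by level, spread, size of difference, copy pairing and disagreement of probe sets, and of each list the 3 with the largest differences. Of 9 lists of ribosome genes, that of ribosomal proteins with other names had 0 of its 5 names measured and so gave no values. Marker lists of sperm (6 copies), Sertoli cells (5), steroid-producing cells (1) and oocytes (2), like those in the report, had no call. In 2 sperm copies and 1 oocyte copy all sex-reversed arrays lay above all normal ones, beside 5.37% of all probe sets. The sperm copies had a summed linear signal of 1347 to 1744 on sex-reversed and 563 to 1555 on normal arrays. Their part in the ribosomal protein values was not tested. Whether replicate numbers pair the arrays is not stated in the labels. Deviations of same-numbered arrays correlated at -0.01, -0.02 and 0.14, and those of differently numbered arrays at -0.16 to 0.15. With 3 arrays per group these values cannot decide it. Alternatives covered scaling, filters, variance models, probe set choice, a replicate block and left-out arrays. 0 columns of other samples were present.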

Additional observations from a re-analysis of the deposited data

How the results depend on the processing

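No ribosomal protein probe set passed the threshold under the 16 alternatives run for it. No change of L minus S did under the 12 run for it. With the replicate number as a block there were 0 calls among all probe sets, the members and the copy pairs. Over all probe sets, calls numbered 1 above the median level, 1 after a further quantile normalization, 2 after median centring, 2 at a threshold of 0.1 and 0 to 6 with single arrays left out (6 without sex-reversed replicate 3), none of them a ribosomal protein. The members' median difference ran from -0.0718 to 0.0483 with arrays left out. Their median percentile was 99.2 with the brightest probe set per symbol. It was 96.1 in the 43 members left when all names with the suffix x, s or a (4, 5 and 4 members) were dropped. The x suffix marks possible binding of other transcripts, and the s suffix marks probe sets shared between transcripts. This setting also dropped the members with the suffix a, so it removed more than those. The median correlation between member genes was 0.0803 after a further quantile normalization, 0.391 in members above the median level (an alternative chosen after seeing the data, as were all for this measure) and 0.125 to 0.313 with arrays left out. With single arrays left out the difference changed sign for 3 of 12 members named for their difference: rpl22l1.L ranged from -2.82 to 0.0615, rpl27.S from -0.71 to 1.68 and rpl3l.L from -0.80 to 0.52. So did 4 other genes: mrpl23.S ranged from -0.0755 to 2.25, pdcd2.S from -0.40 to 0.78, taf1b.L from -0.23 to 0.42 and tial1.S from -0.0862 to 1.03. The cause was not tested.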
